A study of Mus musculus with 12 samples.

Results

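Fatty acid oxidation was represented by 6 genes, Slc27a2, Cpt2, Acadm, Acadl, Hadh and Ehhadh, which were taken by name: every probe set whose only platform symbol was one of them was kept. They had 7 probe sets, of 12422 tested, and were 6 of the 8251 genes with a probe set of a single symbol. Cpt2 had 2 probe sets and each other gene had 1. The name under which the genes were grouped also speaks of ketogenesis. None of the 6 is itself an enzyme of ketone body synthesis, so the genes are called fatty acid oxidation genes below.

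The RNA came from a single adult NMR-1 mouse, of which liver, cortex and cerebellum were taken, with no treatment or mutation named in the labels. In the 3X procedure, 1 ng of RNA went through 3 linear amplifications with the RiboAmp HS kit, and each tissue had 3 technical replicates. In the 1X procedure, 5 µg went through a single linear amplification by the standard Affymetrix protocol, and each tissue had 1 array. The amount of RNA, the kit and the number of amplifications differed together between the procedures and cannot be told apart. Linear amplification copies RNA by in vitro transcription. With a single animal behind all 12 arrays, p-values measure technical spread between arrays and nothing about other mice. Signals are log2 values per probe set, and a difference of 1 on this scale is 2-fold.

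Fatty acids are carried into cells and activated to acyl-CoA esters, which enter mitochondria through the carnitine shuttle and are shortened there by repeated rounds of dehydrogenation, hydration, a further dehydrogenation and thiolysis. Peroxisomes shorten very long and branched chains by a similar route. In liver the acetyl-CoA that results also feeds ketone body synthesis during fasting, and many genes of the pathway are known targets of the nuclear receptor PPARα, whereas neurons use fatty acids little as fuel.

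The 250 bases upstream of the annotated gene start are printed for 3 genes: Slc27a2 and Hadh, the pair that passed the test between liver and brain at 3X, and Acadm, the brightest of the 6. The sequences are from RefSeq on GRCm38.p6, run 5′ to 3′ in the direction of the gene, and all 6 genes matched an entry. They lie at chr2:126552774-126553023 on the + strand for Slc27a2, chr3:131272102-131272351 on the − strand for Hadh and chr3:153944644-153944893 on the − strand for Acadm. Capitals mark AGGTCA, the core motif bound by many nuclear receptors, here found on the opposite strand.
Slc27a2: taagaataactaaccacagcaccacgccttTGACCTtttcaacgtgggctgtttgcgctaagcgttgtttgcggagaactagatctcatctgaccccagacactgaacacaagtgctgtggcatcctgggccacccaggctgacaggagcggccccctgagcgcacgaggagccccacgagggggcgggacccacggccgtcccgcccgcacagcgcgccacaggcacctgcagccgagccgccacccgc
Hadh: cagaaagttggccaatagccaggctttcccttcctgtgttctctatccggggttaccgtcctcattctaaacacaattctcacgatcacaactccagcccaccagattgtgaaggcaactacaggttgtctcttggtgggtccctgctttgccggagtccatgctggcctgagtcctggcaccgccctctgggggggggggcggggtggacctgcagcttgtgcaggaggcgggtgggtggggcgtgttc
Acadm: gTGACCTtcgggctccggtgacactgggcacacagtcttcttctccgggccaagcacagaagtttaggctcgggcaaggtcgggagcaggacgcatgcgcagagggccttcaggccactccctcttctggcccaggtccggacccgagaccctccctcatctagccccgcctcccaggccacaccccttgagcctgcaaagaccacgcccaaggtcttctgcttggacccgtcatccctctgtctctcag
The motif starts at position -220 from the gene start in Slc27a2 and at -249 in Acadm. Hadh, Cpt2, Acadl and Ehhadh had no match in this window. AGGTCA on either strand was found in 14.02% of 32851 upstream windows of the same length and in 2 of the 6 genes. The direct repeat AGGTCANAGGTCA, a pair of the cores with 1 base between them, was found in 11 windows (0.0335%), each also holding the core, and in none of these genes. These counts describe letters only and say nothing about binding.

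The tissue labels were checked against marker genes. All 15 hepatocyte markers were higher in liver than in brain at 3X, and their mean signal was 8.37 to 9.25 on the liver 3X arrays and 9.85 on the liver 1X array, against 3.16 to 3.499 on all brain arrays. Lower in liver were 5 of 8 neuron markers, 4 of 6 astrocyte markers, 2 of 5 oligodendrocyte markers, 5 of 12 kidney markers and 1 of 2 erythroid markers, whereas 2 of 4 Kupffer cell and macrophage markers were higher and none of 3 choroid plexus markers passed the test. No share over all probe sets stands beside the counts of lower markers, which serve only as a check of labels. The mean of the neuron markers in liver was 4.69 to 5.10 at 3X against 4.07 at 1X, and in the brain regions 5.74 to 6.56 at 3X against 7.08 to 7.42 at 1X. In bulk tissue, fewer cells of a type and less RNA per cell cannot be told apart. The array medians were 3.45 to 3.48, and 55 of the 84 values of the fatty acid oxidation probe sets lay below the median of their array. The values carry no detection call, so for such dim signals a difference cannot be read as a ratio of RNA.

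Slc27a2, a very long chain acyl-CoA synthetase and fatty acid transport protein of peroxisomes and the endoplasmic reticulum, kept the clearest liver signal. Its 3X signals were 4.20, 3.84 and 4.74 in liver, 1.14, 1.61 and 1.13 in cortex and 2.39, 2.47 and 2.53 in cerebellum. At 1X they were 4.58 in liver, 0.83 in cortex and 1.72 in cerebellum. Every liver array lay above every brain array under both procedures, and the order liver, cerebellum, cortex was the same in both.

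Cpt2 encodes carnitine palmitoyltransferase 2, which turns acylcarnitines back into acyl-CoA at the inner mitochondrial membrane. On its brighter probe set the 3X signals were 4.26, 4.11 and 4.15 in liver, 4.15, 4.24 and 4.23 in cortex and 4.14, 4.10 and 4.09 in cerebellum, with liver overlapping both brain regions. At 1X the liver array stood apart at 5.05, against 3.94 in cortex and 3.94 in cerebellum. The dimmer probe set, whose suffix (_r_at) marks a less specific design, lay between 2.42 and 2.63 on all 12 arrays and showed no such step, so the probe sets of Cpt2 disagreed at 1X.

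Acadm, the medium chain acyl-CoA dehydrogenase, was the brightest gene. Its 3X signals were 5.76, 5.70 and 7.02 in liver, 5.33, 4.72 and 5.42 in cortex and 5.72, 5.86 and 5.63 in cerebellum, and its 1X signals were 7.75 in liver, 5.53 in cortex and 6.13 in cerebellum. Liver replicate 3 was far above the other liver 3X arrays, which overlapped with cerebellum. Acadl, the long chain acyl-CoA dehydrogenase, had 3X signals of 2.24, 2.59 and 2.66 in liver, 2.14, 2.23 and 2.21 in cortex and 2.28, 2.20 and 2.19 in cerebellum. At 1X Acadl had 3.20 in liver, 2.12 in cortex and 2.26 in cerebellum. Liver replicate 1 lay among the brain arrays.

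Hadh encodes the short chain 3-hydroxyacyl-CoA dehydrogenase of the mitochondrial matrix. Its 3X signals were 3.31, 2.98 and 3.37 in liver, 2.90, 2.86 and 2.86 in cortex and 2.85, 2.82 and 2.88 in cerebellum. At 1X it had 5.56 in liver, 2.94 in cortex and 3.23 in cerebellum. The liver 3X arrays were above all brain 3X arrays by a small margin and more than 2 log2 units below the liver 1X array. Ehhadh, the peroxisomal enoyl-CoA hydratase and 3-hydroxyacyl-CoA dehydrogenase, had 3X signals of 2.15, 2.40 and 2.54 in liver, 2.11, 2.04 and 2.20 in cortex and 2.18, 2.26 and 2.20 in cerebellum, and 1X signals of 3.41 in liver, 1.94 in cortex and 2.05 in cerebellum. At 3X its lowest liver array lay within the range of cortex and below all cerebellum arrays.

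**Figure D1:**
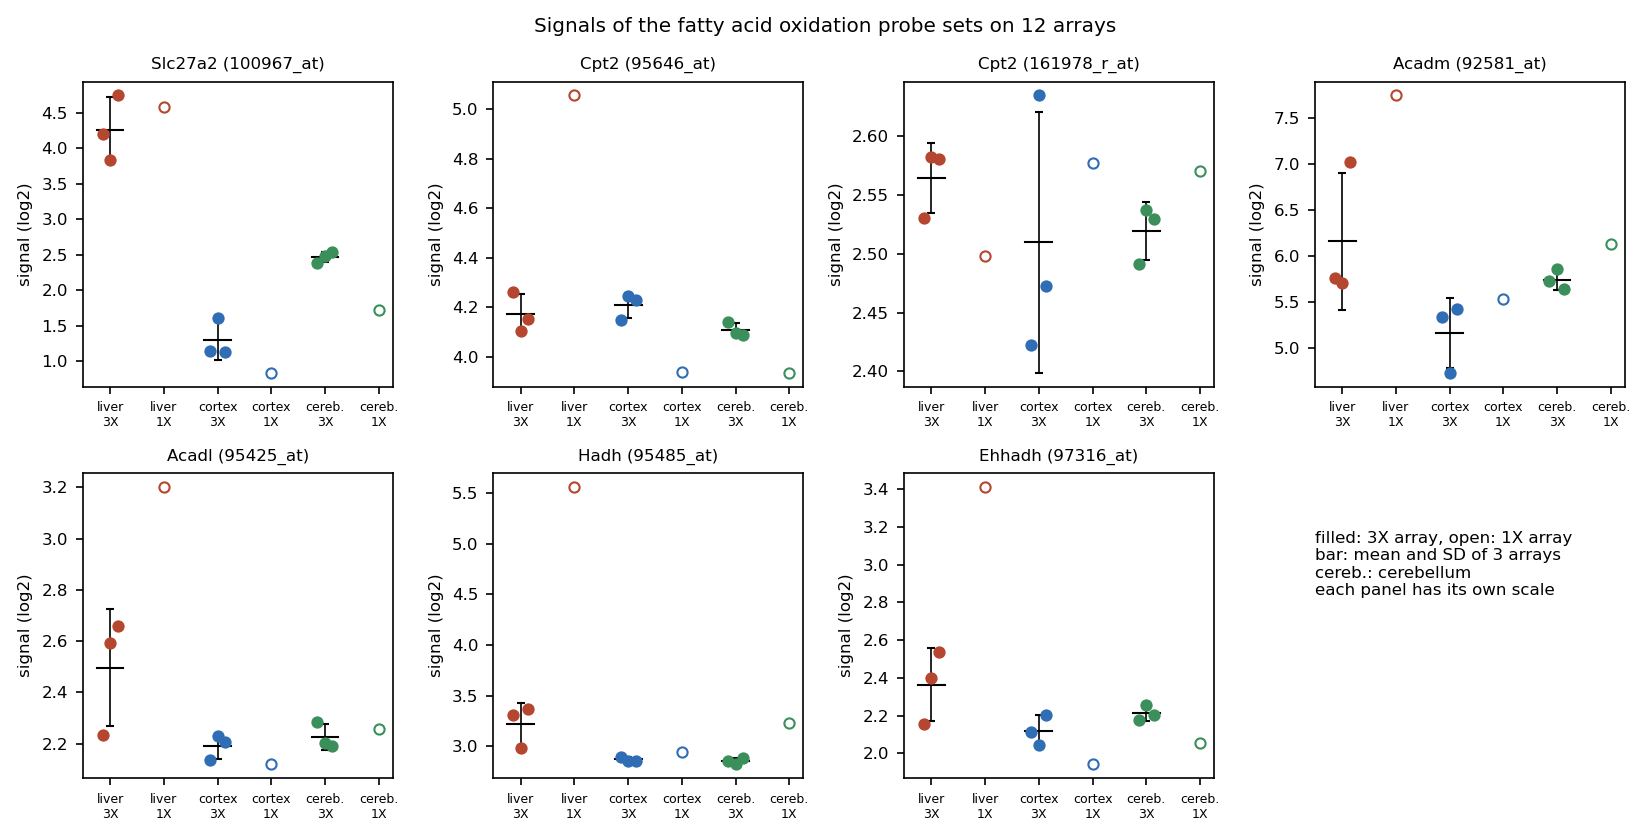
Log2 signal of each fatty acid oxidation probe set on the 12 arrays by tissue and procedure; filled points are 3X arrays, open points 1X arrays, and bars the mean and SD of 3 arrays. The liver 1X point is above all liver 3X points for the brighter Cpt2 probe set, Acadm, Acadl, Hadh and Ehhadh, whereas for Slc27a2 it lies within the liver 3X range.

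The first comparison asked which of these genes differed between liver and brain at 3X. Slc27a2 and Hadh were higher in liver and the other genes did not pass the test. Slc27a2 averaged 4.26 ± 0.46 in liver, against 1.29 ± 0.28 in cortex and 2.46 ± 0.07 in cerebellum (SD, n = 3 each). Liver minus the mean of the 2 regions was 2.38 ± 0.18 (SE; limma, adjusted p = 4.65e-06). Hadh averaged 3.22 ± 0.21 in liver, against 2.87 ± 0.02 in cortex and 2.85 ± 0.03 in cerebellum (SD, n = 3 each), a difference of 0.36 ± 0.09 (adjusted p = 0.0154). All 3X signals of Hadh, those of liver included, lay below the lowest array median of 3.45, so its difference is not a ratio of RNA. The call for Hadh was lost without liver replicate 1 (0.31, adjusted p = 0.0675) or without liver replicate 3 (0.28, adjusted p = 0.0510).

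Thus 2 of 7 probe sets passed in the direction of liver, where 8.17% of all probe sets did. The same probe sets were the 2 of 7 in which every liver 3X array lay above every brain 3X array, against 9.10% of all. Acadm had a larger difference than Hadh, 0.71 ± 0.27, but its liver arrays spread over 0.75 (SD, n = 3) and its adjusted p was 0.0980. Without liver replicate 3 the difference of Acadm was 0.28. That array was also the liver 3X array with the highest mean of hepatocyte markers, 9.25, against 8.65 and 8.37 on the other liver 3X arrays, and with the highest correlation with the liver 1X array over all probe sets (Pearson's r = 0.928, against 0.894 and 0.893), and the part of either in the result was not tested. The differences of Acadl (0.29 ± 0.09, adjusted p = 0.0567) and Ehhadh (0.20 ± 0.09, adjusted p = 0.160) did not pass. Without liver replicate 1 both did, at 0.42 for Acadl (adjusted p = 0.00390) and 0.30 for Ehhadh (adjusted p = 0.0320). Acadl also passed with all 3X arrays under quantile normalization (0.35, adjusted p = 0.0296), with a mean per gene (adjusted p = 0.0459), with trend and robust settings (adjusted p = 0.0381) and in the additive fit of all 12 arrays (0.47, adjusted p = 0.0180). Acadm passed in that additive fit (1.01, adjusted p = 0.0227), the only 1 of 17 alternatives in which it did. For the brighter Cpt2 probe set the difference was 0.01, with a 95% interval of -0.13 to 0.16, and for the dimmer one it was 0.05 (adjusted p = 0.693).

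Against each region alone the same 2 of 7 probe sets were higher in liver, with backgrounds of 6.64% for cortex and 6.38% for cerebellum. Slc27a2 exceeded cortex by 2.96 ± 0.21 (adjusted p = 3.03e-06) and cerebellum by 1.80 ± 0.21 (adjusted p = 0.000142). Hadh exceeded cortex by 0.35 ± 0.10 (adjusted p = 0.0408) and cerebellum by 0.37 ± 0.10 (adjusted p = 0.0324). The Hadh call against cortex was lost when any 1 of the 3X arrays other than liver replicate 2 was left out (adjusted p = 0.0599 to 0.117). Its call against cerebellum was lost when any 1 other than liver replicate 2 or cortex replicate 2 was left out (adjusted p = 0.0503 to 0.107). The Hadh differences in these fits were 0.27 to 0.38. Acadm was near the threshold against cortex (1.00 ± 0.31, adjusted p = 0.0529) and passed in 9 of 18 alternatives. Among these were the fits without liver replicate 1 (adjusted p = 0.0394), 2 (0.0334) or 3 (0.0423). Against cerebellum Acadm was far from the threshold (0.42 ± 0.31, adjusted p = 0.454), and the difference was -0.01 without liver replicate 3.

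The 1X arrays gave a different picture, which has no test because each tissue had 1 array. All 6 genes, with 6 of 7 probe sets, were at least 2-fold higher in signal in liver than in brain at 1X, where 6.54% of all probe sets were. Acadl (3.20) and Ehhadh (3.41) lay below the array median of 3.47 even on the liver 1X array, so their differences are not ratios of RNA. Against cerebellum alone Acadl differed by 0.94 at 1X. At 3X 1 of 7 probe sets, that of Slc27a2, reached this size, against 2.33% of all probe sets. Slc27a2 differed by 2.38 at 3X and 3.30 at 1X. Hadh differed by 0.36 at 3X and 2.48 at 1X, and Acadm by 0.71 at 3X and 1.92 at 1X. The difference of Ehhadh was 0.20 at 3X and 1.41 at 1X, and that of Acadl 0.29 at 3X and 1.01 at 1X. For the brighter Cpt2 probe set it was 0.01 at 3X and 1.12 at 1X. The exception was the dimmer Cpt2 probe set, with 0.05 at 3X and -0.08 at 1X. The difference was larger at 1X in 6 of 7 probe sets, against 46.1% of all. The median over the 7 probe sets was 0.29 at 3X and 1.41 at 1X, whereas that of all probe sets was 0.01 at 3X and -0.02 at 1X. Acadm and the brighter Cpt2 probe set lay above the array median on every array, though without a detection call. The ratio of liver to brain signal was 1.64-fold at 3X and 3.78-fold at 1X for Acadm. For Cpt2 it was 1.01-fold at 3X and 2.17-fold at 1X. These ratios of signal are not shown to be ratios of RNA.

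**Figure D2:**
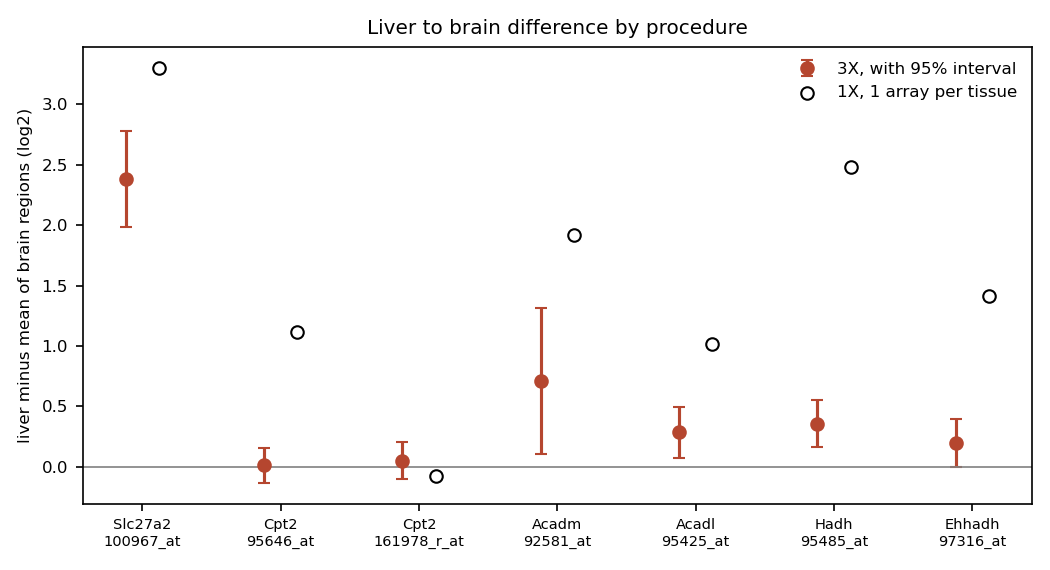
Liver minus the mean of cortex and cerebellum (log2) for each probe set; filled points are 3X differences with 95% intervals from limma, open points the 1X difference from 1 array per tissue. The open point is above the 3X interval in 6 of 7 probe sets, and Slc27a2 has the largest difference under both procedures.

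Whether the liver to brain difference itself depended on the procedure was tested with a contrast of group means, with the spread of the single 1X arrays taken to be that of the 3X replicates. The difference was smaller at 3X than at 1X for Hadh, Ehhadh, the brighter Cpt2 probe set and Acadl. The change was -2.12 ± 0.18 for Hadh (SE; limma, adjusted p = 2.41e-05), -1.22 ± 0.18 for Ehhadh (adjusted p = 0.000936) and -1.10 ± 0.13 for the brighter Cpt2 probe set (adjusted p = 0.000245). For Acadl it was -0.73 ± 0.19 (adjusted p = 0.0282), a call that was lost without cortex replicate 3 (adjusted p = 0.05003) or without cerebellum replicate 1 (adjusted p = 0.0506). Measured against cerebellum alone, the change of Acadl was -0.67 and did not pass (adjusted p = 0.0917). In the main fit 4 of 7 probe sets were called smaller at 3X, against 6.37% of all. A moderated F test over the 3 tissues passed for 3 of 7 (Hadh, Ehhadh and the brighter Cpt2 probe set), against 10.4% of all.

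Acadm (-1.21 ± 0.54, adjusted p = 0.218) and Slc27a2 (-0.92 ± 0.36, adjusted p = 0.144) changed in the same direction without passing. Both passed without liver replicate 3, at -1.64 for Acadm (adjusted p = 0.00167) and -1.16 for Slc27a2 (adjusted p = 0.00701). Smaller differences at 3X were not limited to these genes. Of the 812 probe sets at least 2-fold higher in liver than in brain at 1X, 97.5% had a smaller difference at 3X and 71.4% were called lower in this test. At the median they differed by 0.63 at 3X and 2.04 at 1X. These probe sets were chosen by the 1X values that also enter the contrast, so the shares are a description and are partly set by the choice.

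Within liver, 5 of 7 probe sets were lower at 3X than at 1X, where 15.7% of all probe sets were. Hadh fell by 2.34 ± 0.14 (SE; limma, adjusted p = 1.64e-06), Acadm by 1.59 ± 0.44 (adjusted p = 0.0190), Ehhadh by 1.05 ± 0.14 (adjusted p = 0.000395), the brighter Cpt2 probe set by 0.88 ± 0.11 (adjusted p = 0.000169) and Acadl by 0.71 ± 0.15 (adjusted p = 0.00612). In each of these, all 3 liver 3X arrays lay below the liver 1X array, as in 26.6% of all probe sets. Slc27a2 differed by -0.32 ± 0.29 (adjusted p = 0.399), and its 95% interval of -0.97 to 0.33 still includes a loss the size of that of Cpt2. Of the 15 hepatocyte markers, 6 were lower and 2 higher at 3X in liver.

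In the brain regions no probe set of the 7 passed in limma, against 26.2% of all in cortex and 32.4% in cerebellum, and at an unadjusted p under 0.05 there was 1 in cortex and 2 in cerebellum. Slc27a2 was 0.46 ± 0.29 higher at 3X in cortex (adjusted p = 0.263) and 0.74 ± 0.29 higher in cerebellum (adjusted p = 0.0750). Hadh differed by -0.07 in cortex (adjusted p = 0.740) and by -0.38 in cerebellum (adjusted p = 0.0680). In cerebellum both passed without liver replicate 2 (adjusted p = 0.0378 for Slc27a2 and 0.0194 for Hadh) or without liver replicate 3 (0.0134 and 0.0447), which changes the shared spread and not the difference. In an additive model over all 12 arrays, 2 of 7 probe sets were lower at 3X, against 19.5% of all. These were Acadm (-0.79 ± 0.30, adjusted p = 0.0451) and Hadh (-0.93 ± 0.32, adjusted p = 0.0273). Neither passed without the liver 1X array, where Acadm had -0.38 (adjusted p = 0.296) and Hadh -0.22 (adjusted p = 0.0974), and where Slc27a2 passed with 0.60 (adjusted p = 0.0268), against 0.29 on all arrays. The Acadm call was also lost without liver replicate 1 or 2, cortex replicate 2, any cerebellum 3X replicate or the cerebellum 1X array (adjusted p = 0.0534 to 0.0719). For the brighter Cpt2 probe set the sign of this common effect turned, being -0.15 on all arrays and 0.22 without the liver 1X array (adjusted p = 0.0252).

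**Figure D3:**
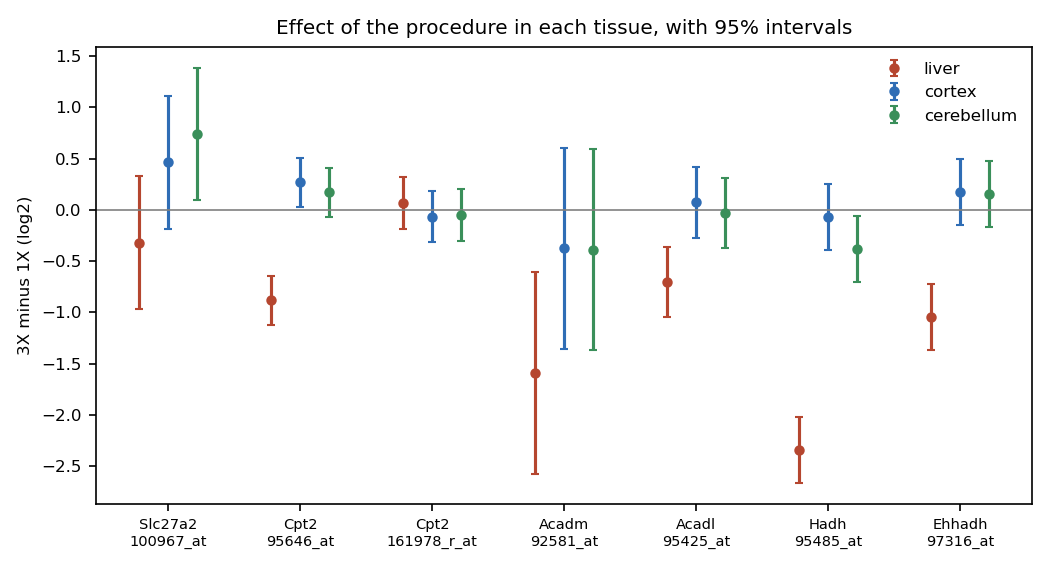
Difference between 3X and 1X (log2) in liver, cortex and cerebellum for each probe set, with 95% intervals from limma in a fit that takes the spread of the 3X replicates for the single 1X arrays. The liver intervals of the brighter Cpt2 probe set, Acadm, Acadl, Hadh and Ehhadh lie wholly below 0, as does the cerebellum interval of Hadh, whereas no cortex interval does.

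Between the brain regions, Slc27a2 was lower in cortex than in cerebellum and no other fatty acid oxidation gene passed. The difference of Slc27a2 was -1.17 ± 0.21 at 3X (SE; limma, adjusted p = 0.0219) and -0.89 at 1X. It was the 1 of 7 probe sets lower in cortex, against 0.628% of all. The direction held without any single array, but the call was lost without cortex replicate 1 (adjusted p = 0.127), cortex replicate 3 (0.111), cerebellum replicate 1 (0.0718), cerebellum replicate 2 (0.101) or cerebellum replicate 3 (0.107). Acadm had the same direction with -0.58 ± 0.31 at 3X (adjusted p = 0.694) and -0.59 at 1X. In both genes every cortex 3X array lay below every cerebellum 3X array, as in 8.56% of all probe sets. The other 5 probe sets differed by -0.09 to 0.10.

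Kidney markers moved with the same comparison. Kidney expression of the fatty acid oxidation genes was not compared. Hadh, Ehhadh, Acadl and Cpt2 differed by only -0.09 to 0.10 between the regions at 3X. Of 12 measured kidney markers, from a list chosen with earlier results of these arrays known, 5 were lower in cortex than in cerebellum: Napsa (-3.43), Kap (-1.04), Slc34a1 (-0.95), Umod (-0.88) and Miox (-0.86). Of all probe sets, 0.628% were lower in cortex. The mean over the 12 markers was 3.62 to 3.64 on the cortex 3X arrays against 4.26 to 4.36 on the cerebellum 3X arrays, and 3.38 against 4.50 at 1X. In liver it was 3.55 to 3.64 at 3X and 3.25 at 1X, and 6 of the 12 markers were lower in liver than in cerebellum and 0 lower than in cortex at 3X. These liver counts have no share over all probe sets beside them. None of the 15 hepatocyte markers passed between the regions, with 1 at an unadjusted p under 0.05, whereas the erythroid gene Hba-a1 was also lower in cortex (-0.99). Markers of brain cells moved in this direction too: 1 of 6 astrocyte markers and 1 of 5 oligodendrocyte markers were lower in cortex, and 0 of 8 neuron markers passed. The part of kidney RNA, of blood or of the cell types of each region in the Slc27a2 result was not tested.

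**Figure D4:**
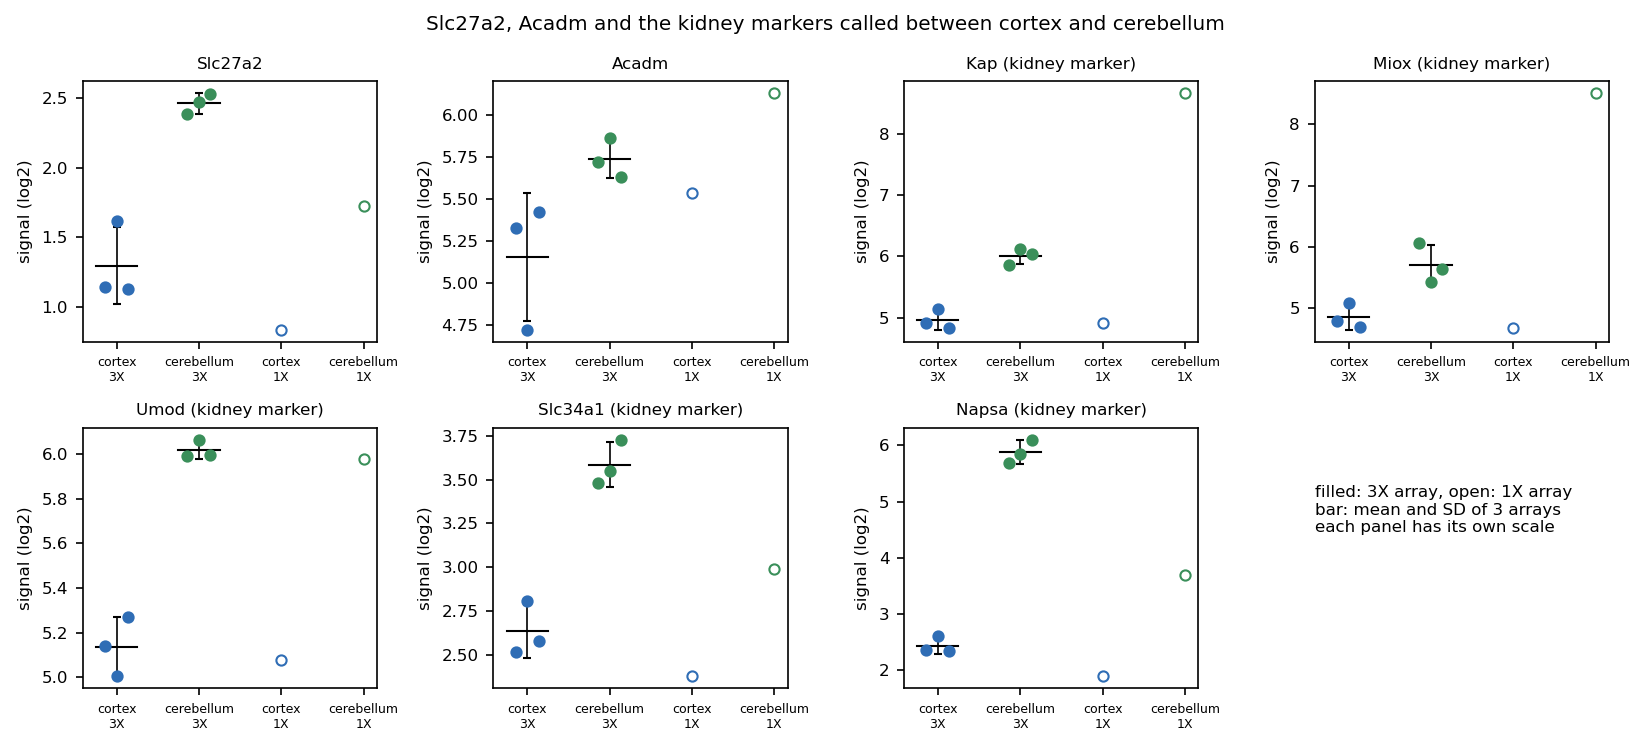
Log2 signals of Slc27a2, Acadm and the 5 kidney markers called between the regions, on the cortex and cerebellum arrays; filled points are 3X arrays with mean and SD bars, open points 1X arrays. In each panel all cortex 3X points lie below all cerebellum 3X points, and the cortex 1X point lies below the cerebellum 1X point.

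Further genes of the pathway were counted from lists by role, with the probe set of the highest mean signal standing for each gene. Of 64 listed genes, 40 were measured, with 48 probe sets, so for some genes another probe set was not used in these counts. Crat and Rxra had 2 probe sets each, and those used carry suffixes (_f_at for Crat and _g_at for Rxra). At 3X, 19 of the 40 were higher in liver than in brain and none was lower, where 8.17% of all probe sets were higher. Their median difference was 0.28, against 0.01 for all probe sets. At least 2-fold higher in liver were 9 of the 40 at 3X, against 2.33% of all probe sets, and 22 at 1X, against 6.54%, with 1 lower by that size at 1X. The change of the difference between procedures passed in 15 of the 40, with 13 lower at 3X, against 6.37% of all, and 2 higher, against 6.87%. In cortex against cerebellum 0 of the 40 passed in limma and 3 had an unadjusted p under 0.05.

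Of the carnitine shuttle, 1 of 4 measured genes was higher in liver at 3X. Cpt1a, the liver form of the outer membrane transferase that limits entry of fatty acids, differed by 0.50 ± 0.13 at 3X (limma, adjusted p = 0.0188) and 2.37 at 1X, a change of -1.86 (adjusted p = 0.000643). Slc25a20, the carnitine-acylcarnitine carrier, differed by 0.32 at 3X (adjusted p = 0.0528) and 1.59 at 1X. Its change was -1.27 (adjusted p = 0.00199). Crat (-0.09) and the carnitine transporter gene Slc22a5 (-0.01) did not pass at 3X.

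Of mitochondrial β-oxidation, 7 of 11 measured genes were higher in liver at 3X. Acaa2, the thiolase of the last step, differed by 3.70 ± 0.12 at 3X (limma, adjusted p = 5.19e-09) and 4.13 at 1X, and its change of -0.43 did not pass (adjusted p = 0.361). Echs1, the short chain enoyl-CoA hydratase, differed by 1.40 ± 0.15 at 3X (adjusted p = 6.47e-05) and 1.97 at 1X. The enoyl-CoA isomerase genes Eci2 and Eci1 differed by 1.15 and 0.64 at 3X and by 1.59 and 1.21 at 1X. Hadhb, a subunit of the trifunctional protein, did not pass at 3X (0.38, adjusted p = 0.135) and differed by 1.83 at 1X. Etfb, a subunit of the flavoprotein that takes electrons from the acyl-CoA dehydrogenases, differed by 0.45 ± 0.09 at 3X (adjusted p = 0.00505) and 2.85 at 1X, a change of -2.39 (adjusted p = 1.48e-05) that was of the order of that of Hadh. Its partners Etfa and Etfdh, named after their values were seen, changed by -2.49 (adjusted p = 0.000528) and -2.01 (adjusted p = 0.000103).

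Of peroxisomal oxidation, 6 of 10 measured genes were higher in liver at 3X, whereas Ehhadh of the same organelle had not passed. Phyh, which starts the breakdown of phytanic acid, differed by 2.14 ± 0.25 at 3X (limma, adjusted p = 0.000110) and 3.77 at 1X. The peroxisomal thiolase gene Acaa1a differed by 1.89 ± 0.21 at 3X (adjusted p = 9.66e-05) and 2.84 at 1X, with the limit that its probes may share sequence with its close copy Acaa1b. Scp2, a thiolase and sterol carrier, differed by 1.72 at 3X and 2.71 at 1X, and Ech1, a dienoyl-CoA isomerase, by 1.44 at 3X and 2.39 at 1X.

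Of fatty acid activation and uptake, 2 of 6 measured genes were higher in liver at 3X. Slc27a5, the bile acyl-CoA synthetase and a paralogue of Slc27a2, differed by 0.58 ± 0.12 at 3X (limma, adjusted p = 0.00526) and 3.96 at 1X, a change of -3.38 (adjusted p = 7.87e-06). The change of Slc27a2 was -0.92. Acsl5, a long chain acyl-CoA synthetase, differed by 1.28 ± 0.27 at 3X (adjusted p = 0.00688) and 3.93 at 1X. The other family members Slc27a1 and Slc27a4 each differed by -0.13 at 3X, and Slc27a1 by -0.97 at 1X.

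Ketone metabolism was represented by 2 measured genes, neither of which passed at 3X. Oxct1, which activates ketone bodies for use outside the liver and is known to be nearly absent from hepatocytes, differed by -0.32 ± 0.20 at 3X (limma, adjusted p = 0.326) and by -2.37 at 1X. Its change was 2.06 (adjusted p = 0.00515), so a difference in the direction of brain was also smaller at 3X. The monocarboxylate transporter gene Slc16a1 differed by 0.01 at 3X.

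Among regulators and genes of ω-oxidation, 3 of 7 measured genes were higher in liver at 3X. Ppara, which encodes PPARα, differed by 0.85 ± 0.13 at 3X (limma, adjusted p = 0.000843) and 2.58 at 1X, a change of -1.73 (adjusted p = 0.00113). The partner receptor gene Rxra (0.25, adjusted p = 0.0368) and Mlycd (0.26, adjusted p = 0.0351), which encodes malonyl-CoA decarboxylase, were higher by less. The coactivator gene Ppargc1a had -0.24 (adjusted p = 0.0630).

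**Figure D5:**
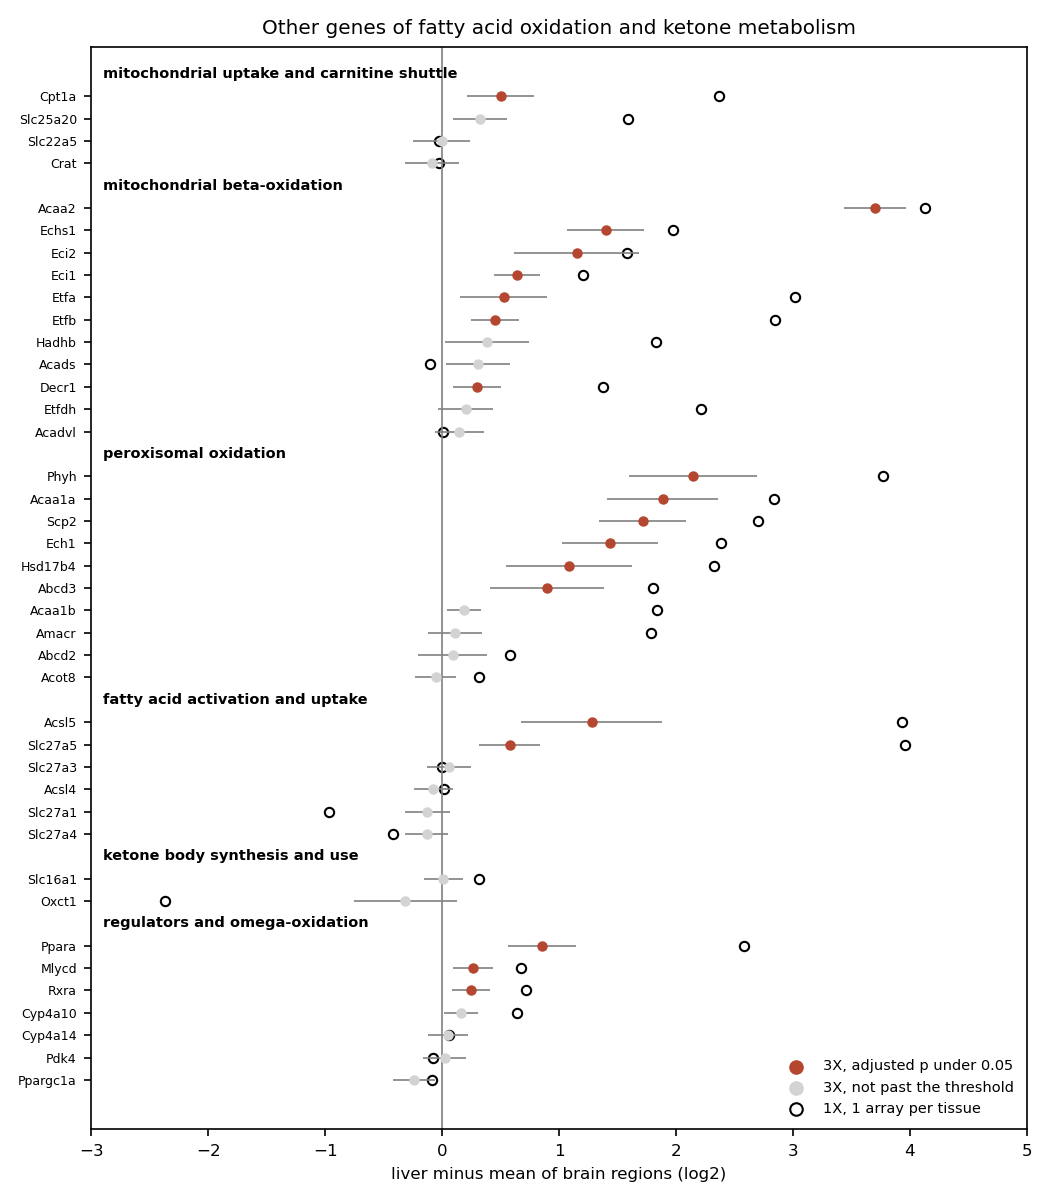
Liver minus the mean of cortex and cerebellum (log2) for 40 further genes of fatty acid and ketone metabolism by role; filled points are 3X differences with 95% intervals, coloured where the adjusted p passed and grey otherwise, and open points are 1X differences. Open points lie to the right of the filled ones in 32 genes, and Oxct1 has the most negative 1X difference.

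In the additive fit, 9 of the 40 genes were higher at 3X, where 37.5% of all probe sets were, and 9 were lower, close to the 19.5% of all probe sets. The largest effects in β-oxidation were -2.49 ± 0.27 for Hadhb (limma, adjusted p = 3.47e-05) and -1.84 ± 0.35 for Etfb (adjusted p = 0.00143), and Acaa2 was higher by 1.03 ± 0.12 (adjusted p = 6.93e-05). In peroxisomal oxidation 4 genes were lower and 2 higher at 3X, and the largest effects were those of Acaa1a (1.16 ± 0.24, adjusted p = 0.00206) and Phyh (-1.14 ± 0.33, adjusted p = 0.0131). Cpt1a (-0.80, adjusted p = 0.0377) and Acsl5 (-1.61, adjusted p = 0.0119) were lower, and Slc27a3 (0.35), Cyp4a14 (0.32) and Ppargc1a (0.25) higher. Within liver alone, 18 of the 40 were lower at 3X, against 15.7% of all probe sets, and 2 were higher, against 19.8%. In each brain region 10 of the 40 passed, no more than the 26.2% of all probe sets that passed in cortex and the 32.4% in cerebellum.

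The genes whose pattern over the 12 arrays was most like each fatty acid oxidation gene were named by Pearson's r, as a description over arrays that share 3 tissues and 2 procedures. For Slc27a2 they were Fbp1 (0.987), Fah (0.985) and Kng1 (0.984), enzymes of gluconeogenesis and tyrosine breakdown and a plasma kininogen. For Hadh they were Sc5d (0.990), Msrb1 (0.990) and H2-D1 (0.987), and for Acadm Glo1 (0.977), Glud1 (0.972) and Lonp2 (0.970). Ehhadh and Acadl shared Fmo5 (0.982 for Ehhadh and 0.979 for Acadl) and Trim25 (0.977 and 0.976), with Upp2 (0.977) for Ehhadh and Iigp1 (0.978) for Acadl as the remaining gene. For Cpt2 they were 4931406C07Rik (0.974), Mcm10 (0.971) and Igf1 (0.969). Among the 6 genes r was lowest between Slc27a2 and Cpt2 (0.51) and highest between Acadl and Ehhadh (0.96). For Hadh, Ehhadh, Acadl and the brighter Cpt2 probe set the liver 1X array stood apart from the others. Hadh had 5.56 on it and at most 3.37 elsewhere, and Cpt2 5.05 and at most 4.26. A high r of these genes can therefore rest largely on that 1 array, and r without it was not computed.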

How the data were processed

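Per the submitters' processing notes, the values deposited for the MG_U74Av2 arrays are log2 signals, made by the authors with RMA, which subtracts background, equalises array distributions and summarises probes. Base 2 was inferred from the highest value, 14.46. The version of RMA and the grouping of arrays in its run were not given. Quantile steps in RMA assume like distributions in all arrays. The number of arrays limits the precision.

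Of 12488 probe sets, 66 manufacturer controls were left out. Genes were named from the platform annotation where a probe set had 1 symbol. The tests were two-sided, by lmFit, contrasts.fit and eBayes of limma 3.58.1 (R 4.3.3), adjusted by Benjamini-Hochberg over 12422 probe sets and called at 0.05. Tissues were compared on the 9 3X arrays. The procedure was tested in an additive fit of 12 arrays and in a fit of 6 group means. The steps were tested on simulated data. Genes, lists and tests were chosen with earlier results of these data known. Named pathway genes are up to 4 per list by liver to brain difference at 3X and 2 by procedure effect, and up to 2 markers per list, with other markers named only where 5 or fewer were called. Upstream sequences came from a RefSeq table. Alternatives were other normalizations, filters, variance settings, arrays and leaving out each array.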

Additional observations from a re-analysis of the deposited data

Results flagged for a closer look

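The effect of the procedure differed between the tissues for 3 of 7 probe sets by limma's moderated F test of the interaction, where 10.4% of all probe sets passed. For Hadh F was 72.7 (adjusted p = 8.31e-05), with 3X minus 1X at -2.34 in liver, -0.07 in cortex and -0.38 in cerebellum. For the brighter Cpt2 probe set, F was 35.1 (adjusted p = 0.000845), with -0.88 in liver, 0.27 in cortex and 0.17 in cerebellum. For Ehhadh F was 23.4 (adjusted p = 0.00323), with -1.05 in liver, 0.18 in cortex and 0.16 in cerebellum. Each tissue had a single 1X array, whose own spread was not measured. Groups of 3 arrays are too small for a check of outlying samples.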

How the results depend on the processing

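Slc27a2 was higher in liver than in brain at 3X under all 16 alternatives (2.14 to 2.76), and the changes of the liver to brain difference passed for Hadh, Ehhadh and the brighter Cpt2 probe set in all alternatives in which they were tested. With only probe sets above the median level, where just Acadm and the brighter Cpt2 probe set were left, the counts of called probe sets were 0 for liver against brain, 1 against cortex, 0 against cerebellum, 0 for cortex against cerebellum, 1 for the common 3X effect, 1 for its tissue dependence, 1 for the change of the liver to brain difference and 2 for 3X against 1X in liver, and 9 of the pathway genes changed their liver to brain difference. In an additive fit of all 12 arrays, 4 probe sets were called between liver and brain, 1 between liver and cerebellum and 0 between cortex and cerebellum. With only the arrays of the tissues compared, the counts were 1 against cortex and 1 against cerebellum, and 2 pathway genes were called between cortex and cerebellum.

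Leaving out each array gave 1 to 3 called probe sets for liver against brain, 1 to 4 against cortex, 1 to 2 against cerebellum, 0 to 1 between cortex and cerebellum, 1 to 2 for the common effect, 3 to 6 for its tissue dependence, 3 to 6 for the change of the liver to brain difference, 5 to 5 in liver, 0 to 0 in cortex and 0 to 2 in cerebellum. Both counts of 6 came without liver replicate 3, and the count of 2 in cerebellum without liver replicate 2 or 3. Pathway genes gave 15 to 18 for liver against brain, 0 to 2 between the regions, 15 to 18 for the common effect and 14 to 23 for the change, with the 23 again without liver replicate 3. The common effect on the brighter Cpt2 probe set ran from -0.35 to 0.22 over the arrays left out, and was reversed, at 0.22, without the liver 1X array. The common effect on Acadm was also lost under quantile normalization (-0.62, adjusted p = 0.0893). The change of Acadl was lost under quantile normalization (-0.59, adjusted p = 0.0922). Causes of these changes were not tested, beyond the smaller sets of probe sets and arrays that the alternatives themselves make.

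The replicate numbers were not taken to pair the 3X arrays in the main fits. Deviations correlated at -0.10 to 0.34 in 9 same-numbered pairs, 5 of them over 0.1, against -0.36 to 0.25 in 18 other pairs, 4 of them over 0.1. Some same-numbered arrays thus shared part of their deviations, and the main fits take no account of it. The 3 pairs of replicate 3 had 0.34, 0.29 and 0.30. With the replicate number as a block, 2 probe sets were called for liver against brain, 3 against cortex, 2 against cerebellum and 1 between the regions, Acadm being the added one (1.00, adjusted p = 0.0300), and 19 pathway genes were called between liver and brain. Signal near or below the array median limits the 5 dimmer probe sets.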
